A study of Homo sapiens with 12 samples.

Results

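The endoplasmic reticulum folding and unfolded protein response genes described here are 31 named genes, taken by their symbols from a table of read counts for 60664 genes. They comprise 11 chaperones and co-chaperones, 6 enzymes of oxidative folding, the 3 stress sensors with the transcription factor XBP1, 2 translocation subunits and 8 genes of endoplasmic reticulum-associated degradation. The members were picked by their known function, with earlier results of these data known. All 31 were among the 17544 genes with enough counts to be tested. The counts come from 12 libraries of the line MDA-MB-231, which derives from a triple-negative breast cancer and whose genotype is given as WT, with 4 libraries numbered as repeats in each of 3 media. All cells were grown in high-glucose DMEM with 10% serum to 70 to 80% confluence at pH 7.4 and then had their medium exchanged for one at pH 7.4, pH 6.9 or pH 6.4, in which they stayed for 24 h. For the middle group the labels say pH 6.9 whereas the protocol gives pH 6.7, and pH 6.9 is the name used here. A single line was studied, and the labels do not say whether the repeats were separate cultures, so the p-values measure the spread between these libraries, which may in part be technical.

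Secretory and membrane proteins enter the endoplasmic reticulum through the Sec61 channel, fold with the help of chaperones such as HSPA5 (BiP) and receive disulphide bonds from protein disulphide isomerases, which the ERO1 oxidases keep oxidised. When unfolded proteins accumulate, the sensors ERN1 (IRE1), ATF6 and EIF2AK3 (PERK) start the unfolded protein response: ERN1 splices the XBP1 transcript into a form that encodes an active transcription factor, ATF6 is cleaved to release one, and EIF2AK3 phosphorylates the initiation factor eIF2α. Proteins that fail to fold are passed to the SEL1L-SYVN1 ubiquitin ligase and its partners for degradation. Counts per gene do not distinguish spliced from unspliced XBP1, cleaved from whole ATF6, or phosphorylated from unphosphorylated EIF2AK3.

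Levels are given as CPM, the counts scaled to a common library size by trimmed mean of M-values (TMM), and fold changes come from edgeR's quasi-likelihood test over all 12 libraries with Benjamini-Hochberg adjustment over all genes tested. A gene is called higher or lower where the adjusted p is under 0.05. This main fit does not pair the libraries by repeat number, although same-numbered libraries resembled each other. A fit blocked on repeat number called 7290 of the 17544 genes tested at pH 6.4 against pH 7.4, where the main fit called 5321. Libraries held 21060767 to 50643233 counts, and the 31 genes together took 0.73 to 1.12% of them. Repeat 1 at pH 7.4 stood apart with 17841 detected genes, the next lowest were repeat 2 at pH 6.9 with 21628 and repeat 2 at pH 7.4 with 23113, and the other 9 had up to 27384. Of 5 markers of a basal, mesenchymal line, vimentin (VIM), CAV1, CD44 and LAMB3 had medians of 1786, 1382, 792 and 362 CPM, whereas SPARC was low at 2.1. Of 5 luminal markers, ESR1, PGR and FOXA1 were at 0 in 7, 11 and 7 libraries, while GATA3 (8.74 to 21.2 CPM) and EPCAM (14.8 to 24.3) were present in all 12. The summed level of the luminal markers was 33.4 to 41.8 CPM at pH 7.4, 31.9 to 35.1 at pH 6.9 and 24.8 to 32 at pH 6.4, and its part in the results was not tested. In bulk RNA, fewer cells of a kind and less RNA per cell cannot be told apart.

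At pH 6.4 all 4 genes of the sensor group rose, together with 3 of 11 chaperones (HSPA5, HSP90B1 and HYOU1), 1 of 6 oxidative folding enzymes (ERO1A) and 3 of 8 degradation genes (HERPUD1, EDEM1 and SYVN1). The lectin chaperone CANX fell, and it was the single member called lower. That is 11 genes higher and 1 lower of 31 against pH 7.4, in a comparison where 30.3% of all genes tested were called, 15.6% higher and 14.7% lower. The median log2 fold change was 0.17 over the 31 genes and 0 over all genes tested. By role the medians were 0.71 for the sensors and XBP1, 0.24 for degradation, 0.22 for oxidative folding, 0.02 for chaperones and -0.09 for translocation. Differences between the roles were not tested, and the roles hold between 2 and 11 genes. Libraries of the 2 groups did not overlap for 4 of 31 genes (CANX, ERO1A, XBP1 and EDEM1), where this was so for 27.9% of all genes tested.

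**Figure D1:**
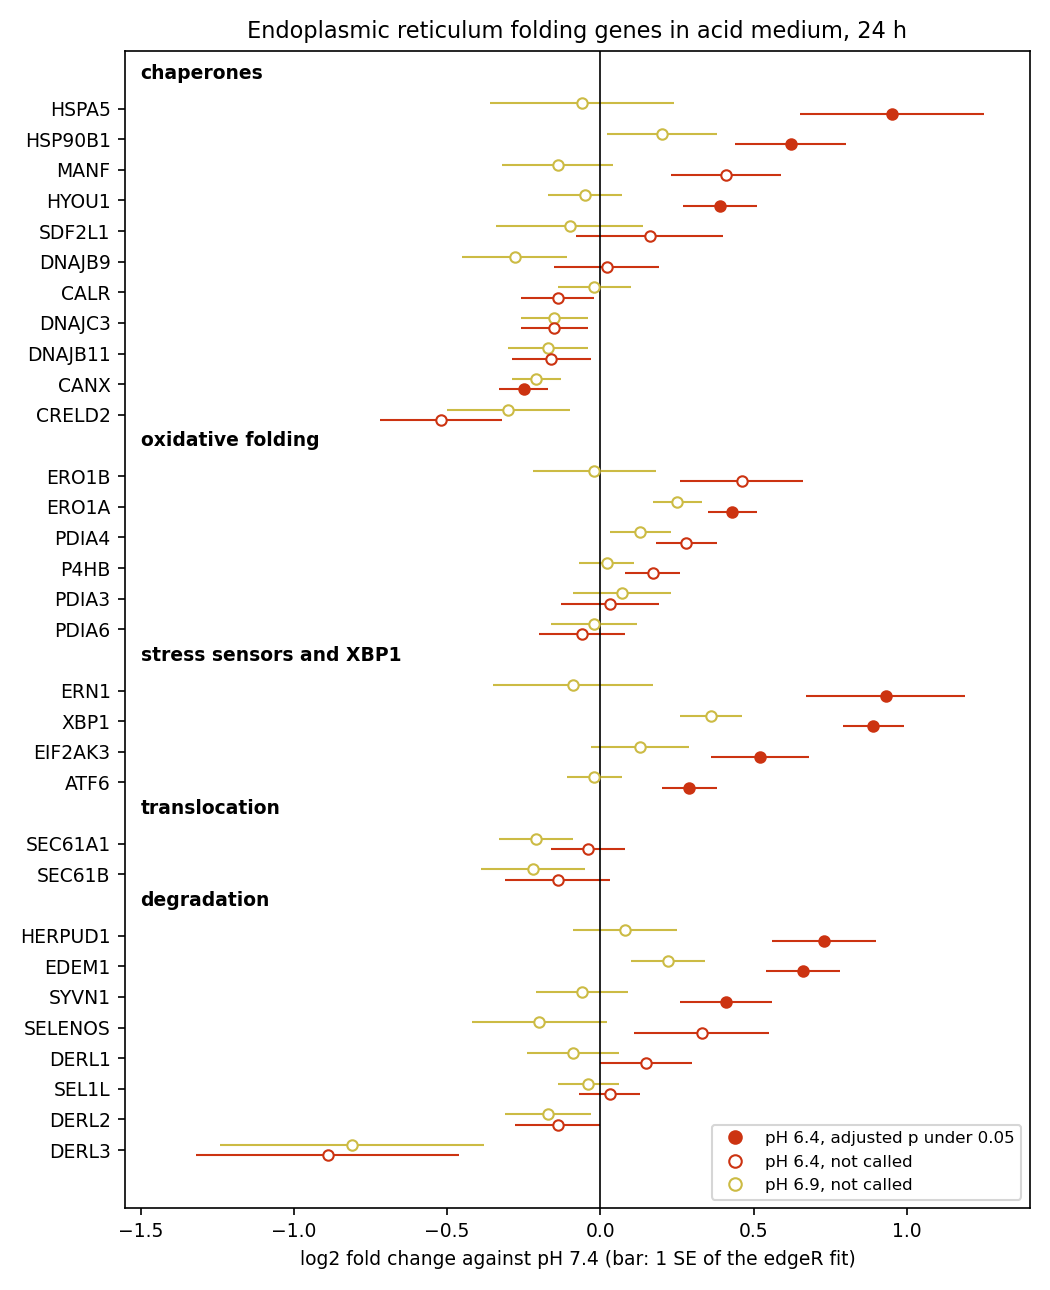
Log2 fold change of each of the 31 genes at pH 6.4 (red) and pH 6.9 (yellow) against pH 7.4, ordered by role, with bars of 1 SE of the edgeR fit and filled points for adjusted p under 0.05. To the right of 0, 11 red points are filled, and 1, CANX, to the left, while no yellow point is filled.

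The promoters of several members hold the elements through which this response is known to act, and 6 of them are shown because they bring together genes that rose with an element, 1 with an element that was not called and 1 that rose without any. They were chosen after the values were seen. The endoplasmic reticulum stress element (ERSE) has the letters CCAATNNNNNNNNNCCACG, ERSE-II has ATTGGNCCACG and the unfolded protein response element (UPRE) has TGACGTGG. Both strands of the 250 bases before each RefSeq start were searched for exact matches to these letters, with N for any base. Near matches were not counted, so a gene without an element here may still hold a similar stretch. Sequences are from RefSeq on GRCh38.p14, run 5′ to 3′ on the strand of the gene and end just before the RefSeq start or, where the GENCODE gene begins earlier, just before that gene. Capitals mark the fixed letters of an element, read on either strand.
HSPA5 (ERSE; chr9:125241344-125241593, minus): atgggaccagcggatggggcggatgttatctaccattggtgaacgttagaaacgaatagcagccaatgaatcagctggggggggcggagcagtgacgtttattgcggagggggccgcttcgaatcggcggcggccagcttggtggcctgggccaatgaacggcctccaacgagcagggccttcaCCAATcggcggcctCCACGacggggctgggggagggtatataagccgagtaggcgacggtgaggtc
XBP1 (ERSE; chr22:28800598-28800819, minus): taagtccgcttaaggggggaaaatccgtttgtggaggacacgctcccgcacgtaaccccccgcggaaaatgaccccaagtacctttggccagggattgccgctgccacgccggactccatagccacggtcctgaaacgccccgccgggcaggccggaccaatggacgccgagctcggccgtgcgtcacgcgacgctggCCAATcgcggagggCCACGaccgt
HYOU1 (ERSE-II at 2 places, with a UPRE overlapping the first; chr11:119057206-119057455, minus): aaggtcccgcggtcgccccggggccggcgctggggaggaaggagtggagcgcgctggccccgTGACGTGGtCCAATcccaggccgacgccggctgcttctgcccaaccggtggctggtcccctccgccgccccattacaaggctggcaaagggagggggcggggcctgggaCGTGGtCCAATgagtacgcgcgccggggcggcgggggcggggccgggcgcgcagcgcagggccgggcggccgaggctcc
HERPUD1 (ERSE-II; chr16:56931892-56932047, plus): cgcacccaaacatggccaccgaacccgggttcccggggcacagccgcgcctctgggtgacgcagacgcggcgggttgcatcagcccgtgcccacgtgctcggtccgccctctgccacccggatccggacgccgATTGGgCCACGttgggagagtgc
CALR (ERSE; chr19:12938359-12938577, plus): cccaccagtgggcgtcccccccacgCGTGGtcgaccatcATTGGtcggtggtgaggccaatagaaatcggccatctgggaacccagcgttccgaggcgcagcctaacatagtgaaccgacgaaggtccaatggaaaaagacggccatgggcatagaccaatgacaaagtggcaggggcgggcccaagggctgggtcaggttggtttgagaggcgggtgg
EDEM1 (no element; chr3:5187457-5187645, plus): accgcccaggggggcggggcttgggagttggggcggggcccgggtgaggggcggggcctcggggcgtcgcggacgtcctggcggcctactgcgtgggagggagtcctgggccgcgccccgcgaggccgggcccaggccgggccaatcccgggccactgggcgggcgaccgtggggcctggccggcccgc
The RefSeq table gave promoters for 28 of the 31 members; DERL1, DERL3 and PDIA3 were not matched. ERSE was present before a RefSeq start of 8 of these 28 genes (28.6%), against 25 of 27305 genes (0.0916%) in all. These were HSPA5, HSP90B1, CALR, CANX, CRELD2, PDIA6, ERO1B and XBP1. Of the 35 member windows, 4 lay wholly before the GENCODE gene, 15 partly inside it and 16 wholly inside it. The windows with an ERSE of HSP90B1, CANX, CRELD2 and PDIA6 were wholly inside. It lay 66 to 48 bases before the start of HSPA5, 52 to 34 before that of XBP1 and 225 to 207 before that of CALR. ERSE-II was present before HYOU1, HERPUD1 and SDF2L1, 3 of the 18 genes that had it among 27305. UPRE was present in 0.612% of all windows and before 1 member, HYOU1. The CEBP-ATF element (TGATGNAA), found in 3.14% of all windows, was present before 1 member, HERPUD1. Of the 11 members with an ERSE or ERSE-II, 5 were higher and 1 lower at pH 6.4 against pH 7.4, and of the 17 with neither, 6 were higher and 0 lower, where 15.6% of all genes tested were higher and 14.7% lower. These letters are a description of the sequence and not of binding, and several of the elements are known from the study of these same genes.

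**Figure D2:**
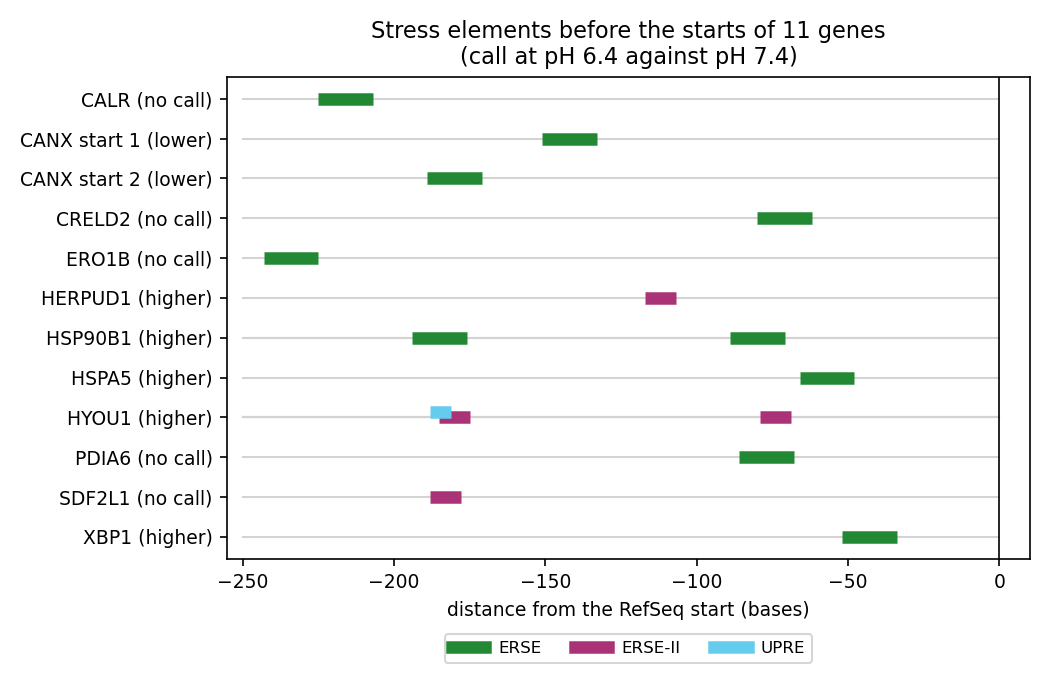
Position of ERSE (green), ERSE-II (purple) and UPRE (blue) in the 250 bases before the RefSeq start of the 11 members that have an ERSE or ERSE-II, with the call at pH 6.4 against pH 7.4 beside each name. CANX has 2 annotated starts, and genes called higher, lower or not called all carry an element.

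XBP1 (ENSG00000100219, chromosome 22 from 28794555 to 28800597 on GRCh38), the transcription factor downstream of ERN1, had the lowest adjusted p of the 31 genes. In repeats 1 to 4 it was at 52.3, 56.6, 54.4 and 54 CPM at pH 7.4, at 68.3, 67.9, 72.3 and 70.3 at pH 6.9 and at 92.1, 119, 82.8 and 108 at pH 6.4. The 3 media did not overlap, and the level at pH 6.9 lay between the other two. Means were 54.4 ± 1.77 and 101 ± 16.4 CPM at pH 7.4 and pH 6.4 (SD, n = 4). The rise was 1.85-fold (log2 0.89, SE 0.10; adjusted p = 4.82e-05). It was also higher at pH 6.4 than at pH 6.9 (log2 0.53; adjusted p = 0.00506). At pH 6.9 against pH 7.4 the change was 0.36 on the log2 scale with an adjusted p of 0.126, which was 0.0354 in the fit blocked on repeat number, 0.0467 with DESeq2 and 0.0407 without repeat 3 at pH 6.4.

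ERN1, the sensor whose nuclease splices XBP1, had 13.9, 11.8, 8.33 and 10.7 CPM in repeats 1 to 4 at pH 7.4 and 12, 11.2, 8.76 and 9.92 at pH 6.9. At pH 6.4 it had 19.7, 31, 10.1 and 24.8. Thus 3 libraries were above all others and repeat 3 lay within the range of the other media. Repeat 3 itself was at 8.33 CPM at pH 7.4 and at 10.1 at pH 6.4. Means of 11.2 ± 2.33 and 21.4 ± 8.81 CPM at pH 7.4 and pH 6.4 (SD, n = 4) made a rise of 1.91-fold (log2 0.93, SE 0.26; adjusted p = 0.0146). Without repeat 2 at pH 6.4 the log2 change was 0.70 and the adjusted p 0.0609. With no filter on low counts the adjusted p was 0.0604, and in the blocked fit it was 0.00269. ERN1 was also higher at pH 6.4 than at pH 6.9 (log2 1.03; adjusted p = 0.0172).

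The PERK gene EIF2AK3 was at 22, 26.7, 25.7 and 23.3 CPM in repeats 1 to 4 at pH 7.4 and at 34.8, 46.7, 23.5 and 35.3 at pH 6.4. Again repeat 3 at pH 6.4 lay among the pH 7.4 libraries while the other 3 were higher. Repeat 3 itself was at 25.7 CPM at pH 7.4 and at 23.5 at pH 6.4. EIF2AK3 rose by 0.52 on the log2 scale (SE 0.16; adjusted p = 0.0263), and the call was lost without repeat 1 or 4 at pH 7.4 or repeat 2 or 4 at pH 6.4, with adjusted p from 0.0557 to 0.104. ATF6, the membrane-bound precursor of a transcription factor, showed the smallest rise of the group (log2 0.29, SE 0.09; adjusted p = 0.0296), with means of 129 ± 8.3 and 158 ± 21.1 CPM (SD, n = 4). Its libraries at pH 6.4 had 156, 181, 131 and 165 CPM. Leaving out repeat 3 or 4 at pH 7.4 or repeat 1, 2 or 4 at pH 6.4 gave adjusted p from 0.0519 to 0.103. The blocked fit gave adjusted p of 0.0133 for EIF2AK3 and 0.00265 for ATF6.

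**Figure D3:**
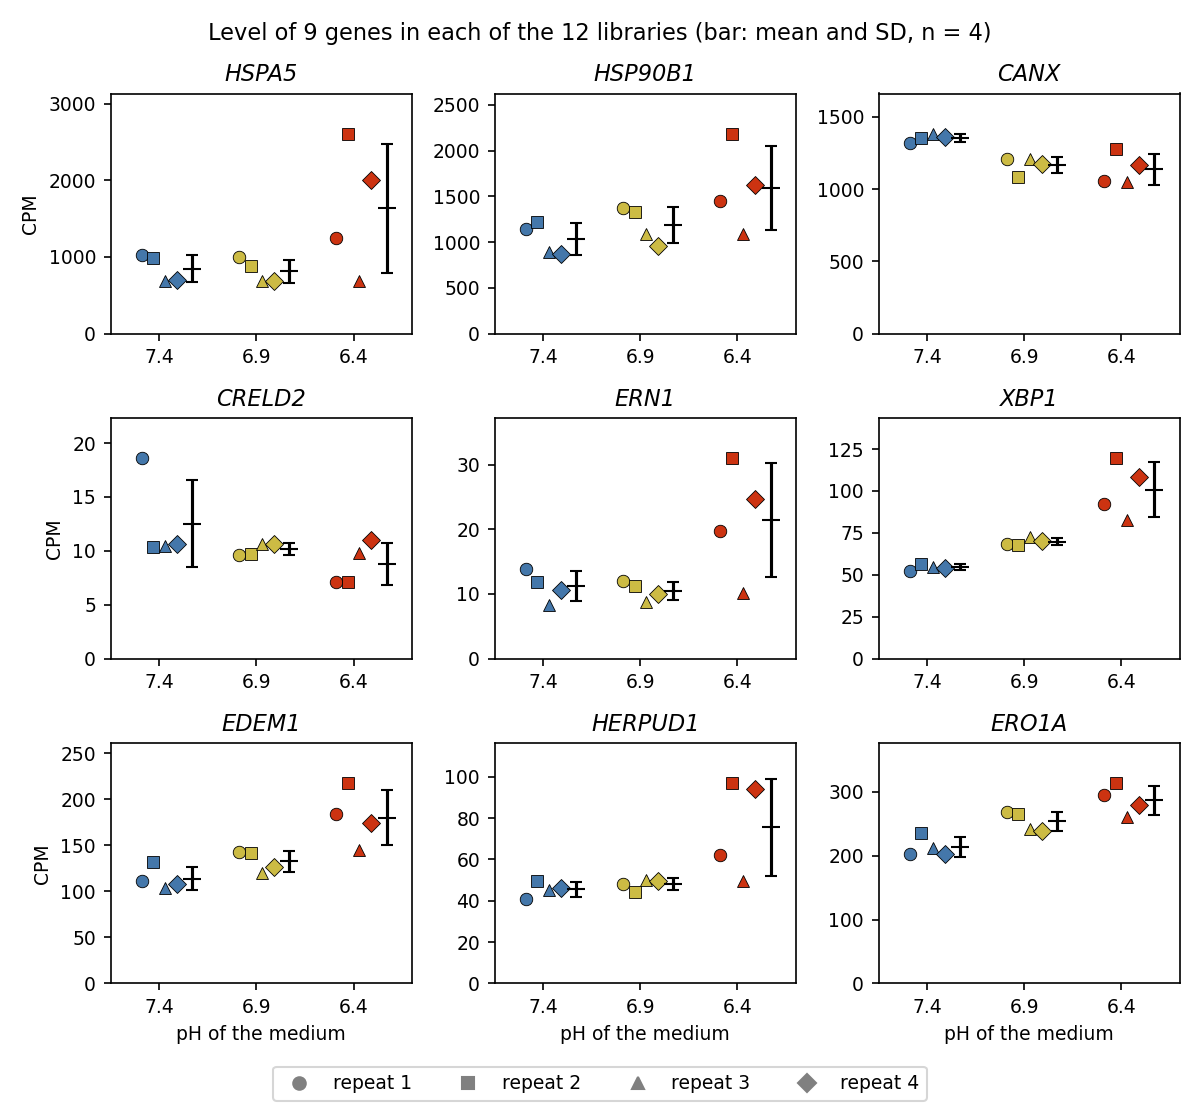
Level in CPM (linear axis from 0) of 9 of the genes in each library, by the pH of the medium, with the repeat number as the symbol and the mean and SD (n = 4) as a bar. XBP1 and EDEM1 at pH 6.4 lie above all pH 7.4 libraries, while HSPA5, HSP90B1, ERN1 and HERPUD1 spread widely at pH 6.4 with repeat 3 lowest and repeat 2 highest.

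The chaperones split. HSPA5 (ENSG00000044574, chromosome 9 from 125234853 to 125241330), the Hsp70 of the endoplasmic reticulum that also holds the sensors inactive, was at 1023, 985, 689 and 698 CPM in repeats 1 to 4 at pH 7.4 and at 995, 876, 689.7 and 689.9 at pH 6.9. At pH 6.4 it was at 1248, 2609.8, 683 and 1998. Of the pH 6.4 libraries 3 were above every other library, and repeat 3 was below them all. The mean went from 849 ± 179.9 to 1635 ± 844 CPM (SD, n = 4), a rise of 1.93-fold (log2 0.95, SE 0.30; adjusted p = 0.0273). The call was lost without repeat 3 or 4 at pH 7.4 or repeat 2 or 4 at pH 6.4. Log2 changes were then 0.63 to 0.87 and adjusted p 0.0693 to 0.115. In the blocked fit the log2 change was 0.86 and the adjusted p 0.0139. Repeats 1 and 2 alone gave a log2 change of 0.95 (adjusted p = 0.0252). Repeats 3 and 4 alone gave 0.97 (adjusted p = 0.163), where repeat 3 was at 689 and 683 CPM and repeat 4 at 698 and 1998.

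HSP90B1 (GRP94), the Hsp90 of the compartment, had 1148, 1224, 894 and 872 CPM in repeats 1 to 4 at pH 7.4, 1372, 1330.3, 1088 and 958 at pH 6.9 and 1449, 2186, 1093 and 1628 at pH 6.4. Repeats 1, 2 and 4 at pH 6.4 were above all pH 7.4 libraries and repeat 3 was not. Repeat 3 itself was at 894 CPM at pH 7.4 and at 1093 at pH 6.4. HSP90B1 rose 1.54-fold against pH 7.4 (log2 0.62, SE 0.18; adjusted p = 0.0201). This call was lost without repeat 3 or 4 at pH 7.4 or repeat 2 at pH 6.4, with adjusted p from 0.0583 to 0.077. In the blocked fit its adjusted p was 0.00153. Against pH 6.9 the log2 change was 0.42 (adjusted p = 0.131; in the blocked fit 0.0217).

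HYOU1, a large Hsp70-like protein that exchanges nucleotide on HSPA5, was at 304, 311, 275 and 293 CPM at pH 7.4 and at 342, 448, 293 and 465 at pH 6.4. It rose by 0.39 on the log2 scale (SE 0.12; adjusted p = 0.0271). Without repeat 3 or 4 at pH 7.4 or repeat 2 or 4 at pH 6.4 the adjusted p was 0.0576 to 0.106. It was 0.00677 in the blocked fit. MANF, a small secreted protein that binds HSPA5, had a similar estimate and was not called, with 86.1, 69.6, 59.9 and 63.4 CPM at pH 7.4 and 82.2, 117, 58.1 and 113 at pH 6.4 (log2 0.41; adjusted p = 0.102, and 0.00467 without repeat 3 at pH 6.4). Against pH 6.9 its log2 change was 0.54 (adjusted p = 0.0519; in the blocked fit 0.0212, and with DESeq2 0.0189).

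The 2 lectin chaperones, which hold glycoproteins during folding, did not follow HSPA5. CANX (calnexin) was at 1318, 1351, 1384 and 1362 CPM in repeats 1 to 4 at pH 7.4, at 1209, 1086, 1205 and 1171 at pH 6.9 and at 1056, 1279.7, 1046 and 1163 at pH 6.4. All 8 libraries of the acid media were below all 4 at pH 7.4. CANX fell by 0.25 on the log2 scale at pH 6.4 (SE 0.08; adjusted p = 0.0264). The call was lost without repeat 2, 3 or 4 at pH 7.4 or repeat 1, 3 or 4 at pH 6.4. The adjusted p was then 0.0506 to 0.092, and in the blocked fit it was 0.00902. At pH 6.9 the log2 change against pH 7.4 was -0.21 (adjusted p = 0.274). CALR (calreticulin), its soluble counterpart, went from 1052 ± 137 to 953 ± 117 CPM (SD, n = 4) and was not called (log2 -0.14; adjusted p = 0.398).

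The remaining 5 genes of this group were not called in any comparison. The J-domain proteins DNAJB11 and DNAJC3, which bring substrates to HSPA5, had log2 changes of -0.16 and -0.15 at pH 6.4 against pH 7.4. DNAJB9, another J-domain protein that also represses ERN1, went from 26.8 ± 4.5 to 27.2 ± 7.47 CPM (SD, n = 4; log2 0.02), and SDF2L1, a partner of DNAJB11, from 6.95 ± 2.07 to 7.78 ± 2.68 (log2 0.16). CRELD2, a secreted stress-induced protein, had 18.6, 10.4, 10.4 and 10.7 CPM in repeats 1 to 4 at pH 7.4 and 7.1, 7.12, 9.8 and 11 at pH 6.4. Repeat 1 at pH 7.4 stood well above the other 3. Its log2 change of -0.52 (SE 0.20) did not pass (adjusted p = 0.0666). It passed with library size scaling (0.0425), with DESeq2 (0.0452), with no filter (0.0493) and without repeat 4 at pH 6.4 (0.0428). Without repeat 1 at pH 7.4 the change was -0.26 (adjusted p = 0.233), and it was -1.01 in repeats 1 and 2 alone (adjusted p = 0.0225) and -0.01 in repeats 3 and 4 alone (adjusted p = 0.974).

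Among the enzymes of oxidative folding, ERO1A, the oxidase that recharges protein disulphide isomerases, was at 202, 236, 212 and 203 CPM in repeats 1 to 4 at pH 7.4, at 268, 266, 242 and 239 at pH 6.9 and at 295, 313, 259.8 and 279 at pH 6.4. The 4 libraries of either acid medium were above the 4 at pH 7.4. ERO1A rose 1.35-fold at pH 6.4 (log2 0.43, SE 0.08; adjusted p = 0.00141). At pH 6.9 against pH 7.4 its log2 change was 0.25 (adjusted p = 0.194; in the blocked fit 0.0188), and at pH 6.4 against pH 6.9 it was 0.18 (adjusted p = 0.15; in the blocked fit 0.0257). The related ERO1B was scarce, with means of 6.44 ± 1.8 and 8.93 ± 1.4 CPM at pH 7.4 and pH 6.4 (SD, n = 4), and was not called (log2 0.46; adjusted p = 0.0888). It was called without repeat 2 at pH 7.4 or without repeat 3 at pH 6.4 (adjusted p 0.029 to 0.042).

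None of the 4 disulphide isomerase genes was called. PDIA4 came nearest (log2 0.28, SE 0.10; adjusted p = 0.0538), with means of 254 ± 31 and 308 ± 36.6 CPM at pH 7.4 and pH 6.4 (SD, n = 4). It passed in the blocked fit (0.011), with DESeq2 (0.0394) and without repeat 1 at pH 7.4 or repeat 3 at pH 6.4 (0.0215 to 0.0345). P4HB, the most abundant of them per length, had a log2 change of 0.17 (adjusted p = 0.175), PDIA3 of 0.03 and PDIA6 of -0.06. The 2 translocation genes SEC61A1 and SEC61B, subunits of the channel, had log2 changes of -0.04 and -0.14 at pH 6.4 and -0.21 and -0.22 at pH 6.9 against pH 7.4, and neither was called.

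Of the degradation genes, EDEM1, which marks misfolded glycoproteins for removal by trimming mannose, was at 111, 132, 104 and 108 CPM in repeats 1 to 4 at pH 7.4, at 142, 142, 119.8 and 127 at pH 6.9 and at 184, 217, 145 and 175 at pH 6.4. The pH 6.4 libraries lay above all 8 others. EDEM1 rose 1.58-fold against pH 7.4 (log2 0.66, SE 0.12; adjusted p = 0.000843) and by 0.44 on the log2 scale against pH 6.9 (adjusted p = 0.0196). The latter call was lost without repeat 3 or 4 at pH 6.9 or repeat 2 or 4 at pH 6.4, with adjusted p from 0.05 to 0.073.

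HERPUD1, a membrane protein that organises the ligase complex, had 40.9, 49.5, 45.4 and 46 CPM at pH 7.4 and 62.3, 96.8, 49.5 and 94 at pH 6.4. Of the pH 6.4 libraries repeat 3 was no higher than the highest at pH 7.4, and the other 3 were above that group. Repeat 3 itself was at 45.4 CPM at pH 7.4 and at 49.5 at pH 6.4. HERPUD1 rose 1.66-fold (log2 0.73, SE 0.17; adjusted p = 0.00494) and was also higher than at pH 6.9 (log2 0.65; adjusted p = 0.0186). SYVN1 (HRD1), the ubiquitin ligase itself, had means of 79.6 ± 6.53 and 106 ± 25.6 CPM in these media (SD, n = 4) and rose by 0.41 on the log2 scale (SE 0.15; adjusted p = 0.0462). Leaving out 9 of the 12 libraries in turn ended this call, namely each of the 4 at pH 7.4, repeats 1, 3 and 4 at pH 6.9 and repeats 2 and 4 at pH 6.4, with adjusted p from 0.0527 to 0.18. In the blocked fit the adjusted p of SYVN1 was 0.0195. SYVN1 shares 398 exon bases with the abundant gene FAU on the same strand, so its value is uncertain.

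The other 5 degradation genes were not called in any comparison. SEL1L, which anchors SYVN1, and the channel-like derlins DERL1 and DERL2 had log2 changes of 0.03, 0.15 and -0.14 at pH 6.4 against pH 7.4. SELENOS, a selenoprotein that links the derlins to the extraction machinery, had 0.33 (adjusted p = 0.281, and 0.0226 without repeat 3 at pH 6.4). Against pH 6.9 it had 0.53 (adjusted p = 0.112; in the blocked fit 0.0253). DERL3 was the scarcest member, with 4.73, 1.76, 0.884 and 1.18 CPM in repeats 1 to 4 at pH 7.4 and a mean of 1.15 ± 0.215 at pH 6.4 (SD, n = 4). Its log2 change of -0.89 had an SE of 0.43 and did not pass (adjusted p = 0.131). Repeats 1 and 2 alone gave -1.41 and repeats 3 and 4 alone 0.09, and DERL3 shares 2923 exon bases with SMARCB1 on the opposite strand.

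**Figure D4:**
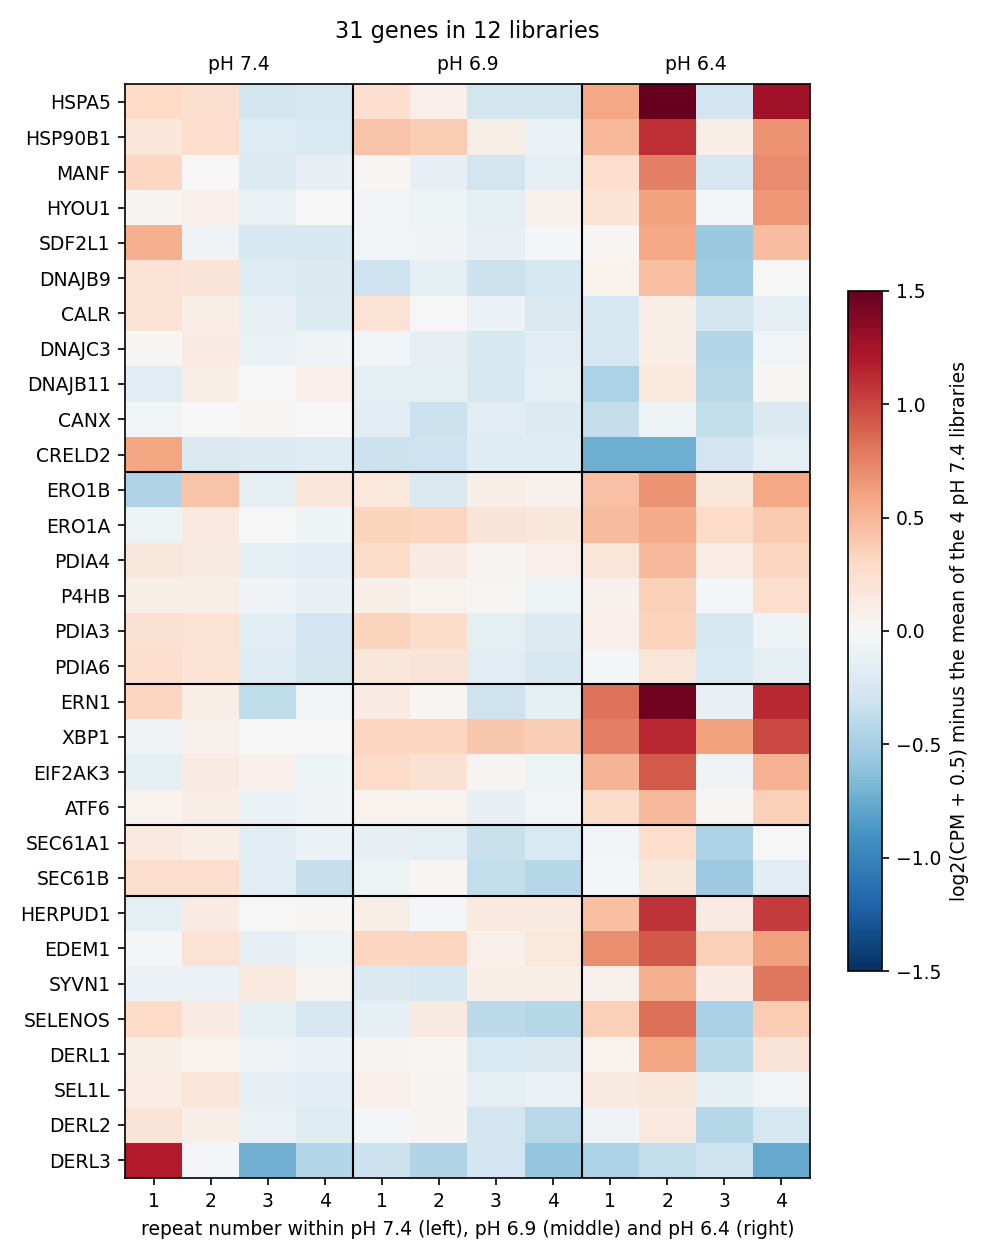
Level of each of the 31 genes (rows, grouped by role) in each of the 12 libraries (columns), as log2(CPM + 0.5) minus the mean of the 4 pH 7.4 libraries, with red above and blue below. The columns of repeats 1, 2 and 4 at pH 6.4 are red for the sensors, HSPA5, HSP90B1, HERPUD1 and EDEM1, and repeat 3 at pH 6.4 is paler for most of them.

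The libraries at pH 6.4 differed in the same order for most members. Repeat 2 was the highest of the 4 for 27 of 31 genes, and repeat 3 was the lowest for 27 of 31. Over the 17457 genes tested that had counts in all 4 of these libraries, repeat 2 was highest for 25.4% and repeat 3 lowest for 30.7%. The ratio of the highest to the lowest pH 6.4 library had a median of 1.55 over the members, from 1.21 to 3.82, and of 1.47 over those 17457 genes. HSPA5 had the ratio of 3.82 and ERN1 3.06. At pH 7.4 and pH 6.9 the members' median ratios were 1.28 and 1.19.

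Without repeat 2 at pH 6.4, 4 members were called higher than at pH 7.4 (ERO1A, XBP1, HERPUD1 and EDEM1), and without repeat 3 there were 16 and none was lower. All genes called numbered 3795 and 6411 in these fits, against 5321 with all libraries. Leaving out repeat 3 at pH 7.4 gave 6, repeat 4 at pH 7.4 gave 5 and repeat 4 at pH 6.4 gave 6. All genes called were then 4381, 4707 and 3983. ERO1A, XBP1 and EDEM1 were called under each of the 22 alternative settings tried. Without the 2 libraries with the fewest detected genes, 9 members were higher and 1 lower. With no filter on low counts, HSPA5 (adjusted p = 0.149), HSP90B1 (0.106), ERN1 (0.0604) and CANX (0.0817) lost their calls and PDIA4 (0.0467) gained one. With only the 2 groups compared, HSPA5 (0.054), HYOU1 (0.0594), ATF6 (0.0607), SYVN1 (0.0679) and CANX (0.0655) lost theirs. Library size scaling ended the calls of ATF6 (0.0641) and SYVN1 (0.0904). Fitted on repeats 1 and 2 alone or on repeats 3 and 4 alone, the 12 called genes had the same sign in both. As they were called on the same libraries pooled, a shared sign was likely beforehand and is no separate support. The fit on repeats 1 and 2 called 8 members higher and 1 lower (CRELD2), among 3978 genes called. That on repeats 3 and 4 called 3 higher (ERO1A, XBP1 and EDEM1), among 1528 genes. EIF2AK3 differed most among the 12 called genes, with log2 changes of 0.75 and 0.27.

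**Figure D5:**
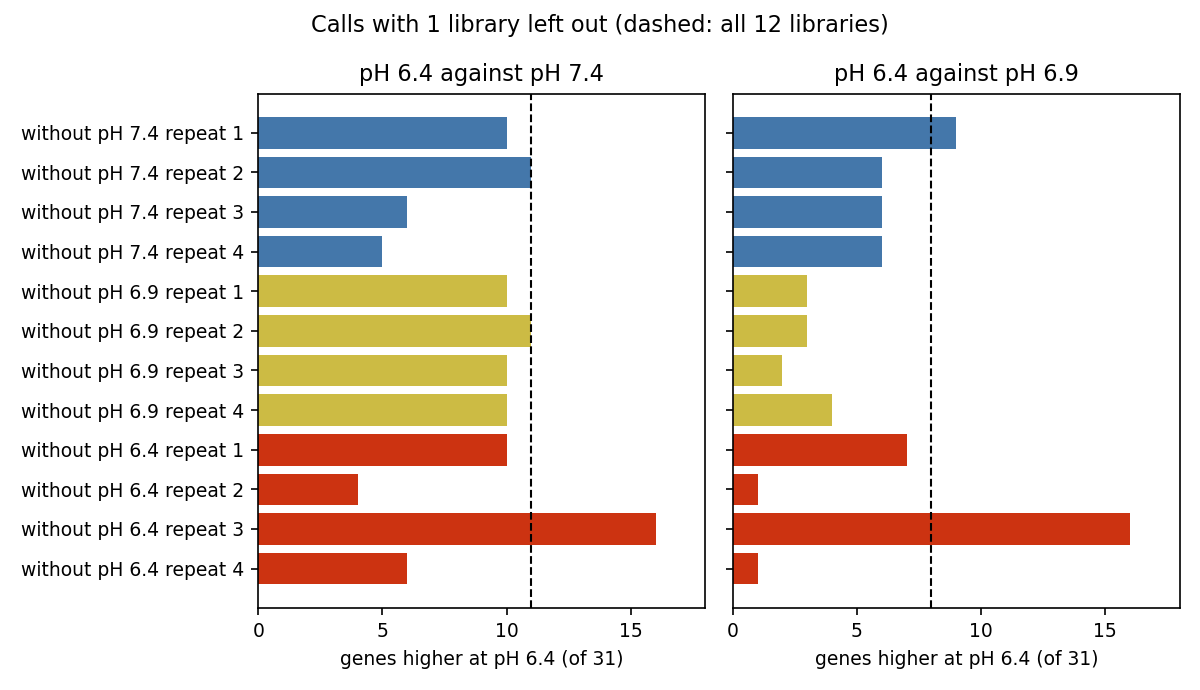
Number of the 31 genes called higher at pH 6.4 against pH 7.4 (left) and against pH 6.9 (right) when 1 library is left out, coloured by the medium of that library, with a dashed line at the count from all 12 libraries (11 and 8). Leaving out repeat 2 at pH 6.4 gives 4 and 1, and leaving out repeat 3 gives 16 and 16. All genes called number 3795 and 1171 in the former case and 6411 and 4944 in the latter, against 5321 and 2988.

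At pH 6.9 against pH 7.4, edgeR called 0 of the 31 genes, where 0.724% of all genes tested were called, 0.313% higher and 0.41% lower. The median log2 change was -0.06 over the members and 0.01 over all genes. At an unadjusted p under 0.05 there were 2 members higher, XBP1 and ERO1A, and 1 lower, CANX. DESeq2 called 1, XBP1, and the blocked fit called 2, XBP1 and ERO1A, with no member lower in either. Of all 17544 genes tested, DESeq2 called 559 and the blocked fit 947, against 127 in the main fit. The libraries of the 2 media did not overlap for these 3 genes, 3 of 31, where this was so for 10.1% of all genes tested. HSPA5, ERN1 and ATF6, which were higher at pH 6.4, had log2 changes of -0.06, -0.09 and -0.02 at pH 6.9, and HERPUD1 had 0.08.

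Between the acid media, 8 members were higher at pH 6.4 than at pH 6.9 (HSPA5, HYOU1, ERN1, ATF6, XBP1, HERPUD1, SYVN1 and EDEM1) and 0 were lower, where 17% of all genes tested were called, 8.83% higher and 8.2% lower. No member was lower at an unadjusted p under 0.05. DESeq2 called 9 higher and 0 lower, where it called 4059 of all 17544 genes tested. HSPA5 rose by 1.01 on the log2 scale (adjusted p = 0.034) and HYOU1 by 0.43 (adjusted p = 0.0277). In the blocked fit HSP90B1, MANF, ERO1A and SELENOS were called as well, 12 in all. That fit called 5456 of all 17544 genes tested, against 2988 in the main fit. The median log2 change was 0.24 over the members and -0.01 over all genes. The libraries did not overlap for 3 of 31 genes (ERO1B, XBP1 and EDEM1), where this was so for 20.4% of all genes tested. By role the medians were 0.46 for the sensors and XBP1, 0.34 for degradation, 0.26 for chaperones, 0.15 for oxidative folding and 0.12 for translocation. This comparison and that against pH 7.4 share the pH 6.4 libraries.

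The calls against pH 6.9, of members as of all genes, depended on single libraries. Without repeat 2 or without repeat 4 at pH 6.4, XBP1 alone was called, and without repeat 3 there were 16. All genes called numbered 1171, 1231 and 4944 in these fits, against 2988 with all libraries. Leaving out repeats 1, 2, 3 or 4 at pH 6.9 gave 3, 3, 2 and 4 members, where 1570, 2115, 1628 and 1880 genes were called. Leaving out the 2 libraries with the fewest detected genes gave 3 (ERN1, XBP1 and EDEM1), where 2887 genes were called. Repeats 1 and 2 alone gave 8 members and 1906 genes, and repeats 3 and 4 alone gave 0 of either. All 8 members called on the whole set had the same sign in both. As they were called on the same libraries pooled, this was likely beforehand and is no separate support. Of the single genes, ATF6 lost its call with 10 of the 12 libraries left out in turn and SYVN1 with 9. These exclusions gave adjusted p up to 0.136 for ATF6, 0.161 for SYVN1 and 0.14 for HSPA5. For HYOU1, HERPUD1 and ERN1 it was up to 0.113, 0.0763 and 0.0713. The blocked fit gave these genes, in the same order, adjusted p of 0.00386, 0.0134, 0.0153, 0.00607, 0.011 and 0.00333.

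Per kilobase of annotated exon, a scale on which genes can be roughly compared, the members spanned a wide range of levels. The length joins the exons of all annotated transcripts of a gene. It can exceed that of the transcript present, so the order of genes is approximate. At pH 7.4 CALR was first with 388 ± 50 CPM per kilobase, followed by HSP90B1 with 220 ± 38, HSPA5 with 217 ± 46 and CANX with 217 ± 4.4 (SD, n = 4). HSP90B1, HSPA5 and CANX did not differ beyond their spread. At pH 6.4 HSPA5 had 418 ± 216, CALR 351 ± 43 and HSP90B1 338 ± 97, again within their spread, and CANX had 182 ± 18. The sensors lay low, with ATF6 at 16.4 ± 1.1, EIF2AK3 at 4.5 ± 0.39 and ERN1 at 1.03 ± 0.21 CPM per kilobase at pH 7.4. DERL3 was the lowest at pH 7.4, at 0.563 ± 0.47, and ERO1B at 1.2 ± 0.34 was within the spread of ERN1. As a share of all counts, the 11 chaperones took 0.492% ± 0.05 at pH 7.4 and 0.568% ± 0.13 at pH 6.4, and the 4 sensor genes 0.0223% ± 0.0011 and 0.0302% ± 0.0039 (SD, n = 4).

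Beyond the 31 genes, 4 lists of other genes of the pathway held 118 genes, of which 116 were tested. At pH 6.4 against pH 7.4, 28 were higher (24.1%) and 15 lower (12.9%), where 15.6% of all genes tested were higher and 14.7% lower. Among 21 regulators 8 were higher and 4 lower, among 31 other folding enzymes 7 and 5, among 29 other degradation factors 7 and 3, and among 35 genes of translocation and glycosylation 6 and 3. Their median log2 changes were 0.07, 0.07, 0.08 and 0.03. The largest rise among the regulators was that of TRIB3, a pseudokinase induced downstream of EIF2AK3, from 19.1 ± 3.6 to 43.2 ± 12 CPM (SD, n = 4; log2 1.17; adjusted p = 0.000354), and the largest fall that of NFYC, a subunit of the CCAAT-binding factor that takes part in recognising ERSE (log2 -0.56; adjusted p = 0.0103). PDIA5, a disulphide isomerase implicated in ATF6 activation, rose from 25.5 ± 3.3 to 51.3 ± 12.6 CPM (SD, n = 4; log2 1.01; adjusted p = 0.000477). The folding factor CNPY2 fell by 0.54 (adjusted p = 0.0226), and without repeat 1 or 2 at pH 7.4 or repeat 4 at pH 6.4 its adjusted p was up to 0.0694. The lectin ERLEC1, which recognises trimmed glycoproteins, rose by 0.65 (adjusted p = 0.00945). RETREG1, a receptor for the autophagy of the reticulum, went from 1.36 ± 0.661 to 0.271 ± 0.199 CPM (SD, n = 4; log2 -2.34; adjusted p = 0.0101). SRPRA, the receptor of the signal recognition particle, rose by 0.77 (adjusted p = 0.00763) and SEC11C, a signal peptidase subunit, fell by 1.28 (adjusted p = 6.88e-05). Within repeats 3 and 4 alone PDIA5, CNPY2, ERLEC1 and SRPRA lost their calls, CNPY2 and SRPRA under further settings as well. Their adjusted p over the alternatives was up to 0.0807, 0.155, 0.161 and 0.252.

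At pH 6.9 against pH 7.4, 1 of the 116 other pathway genes was called (0.862%, where 0.724% of all genes tested were called), ATF4, the transcription factor translated after eIF2α phosphorylation. It went from 131 ± 5.93 to 189 ± 11.1 CPM (SD, n = 4, log2 0.54, adjusted p = 0.00532). The call was lost without the 2 libraries with the fewest detected genes, in repeats 1 and 2 alone and in repeats 3 and 4 alone. Its adjusted p was up to 0.241 over the alternatives. The level of ATF4 was similar at pH 6.4, at 179.8, 227, 198 and 199 CPM in repeats 1 to 4 (mean 201). At pH 6.4 against pH 6.9, 18 of the 116 were higher (15.5%) and 5 lower (4.31%), where 8.83% of all genes tested were higher and 8.2% lower. The largest rises in each list were those of PPP1R15B (0.86; adjusted p = 0.00621), a subunit of the eIF2α phosphatase, PDIA5 (0.86), ERLEC1 (0.74) and SRPRA (0.84). The falls named by the same rule were those of ATF6B, a relative of ATF6 (-0.35; adjusted p = 0.0381), the thioredoxin-like TMX1 (-0.36; adjusted p = 0.0427) and SEC11C (-0.77; adjusted p = 0.00625). Leaving out single libraries ended the calls of ATF6B in 6 cases and of TMX1 in 8, with adjusted p up to 0.131 and 0.145. Within repeats 3 and 4 alone none of the genes named for this comparison was called, where 0 of all genes were.

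Further members have exon bases in common with genes on the opposite strand, among them DNAJB9 with PNPLA8 and THAP5, DNAJB11 with TBCCD1 and CRELD2 with ALG12. The library kit keeps the strand, but the sources used here do not give the strand setting of the counting, so these values are uncertain in that respect. Pseudogene copies took few counts, at most 54 in a library for HSPA5P1 and 264 for PDIA3P1, where HSPA5 and PDIA3 had at least 14803 and 6560.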

How the data were processed

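Stranded poly(A) messenger RNA libraries were made from 20 ng of RNA each, per the labels' protocols. The deposited values are raw counts per gene, aligned with STAR and counted with featureCounts on GRCh38.p13 (hg38), per the submitters' processing notes; the sources used here give no versions or settings. Groups were taken from the labels, 4 libraries each. Genes were filtered with filterByExpr, scaled by TMM and tested with robust quasi-likelihood in edgeR 4.0.16 (limma 3.58.1, R 4.3.3). The fit had 3 groups without a block, leaving 9 residual degrees of freedom. In simulated data the procedure recovered 29.9 to 34.3% of 1.5-fold changes and 55.2 to 71.6% of 2-fold changes over the 3 comparisons. It called at most 0.0478% of unchanged genes. The simulation changed 66 or 67 genes at each size among 16936 to 16949. That is a far smaller share than the 30.3% called here at pH 6.4 against pH 7.4, so these rates may not carry over. A member that was not called may still have changed. DESeq2 1.42.0 was an alternative. Rows without a gene symbol took at most 0.424% of counts. Depth was 21060767 to 50643233 counts per library.

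The members and lists were chosen with earlier results of these data known. All 31 members are accounted for; of the other pathway genes, the called gene with the largest rise and fall of each list in each comparison is named. The labels give a repeat number only. Deviations from the group means of same-numbered libraries correlated at 0.28 to 0.77 in all 12 pairs, and 12 of 12 libraries matched their own number best. The numbers were therefore taken to pair the libraries. The main fit and the fits with a library left out do not use this pairing, and only the blocked fit does. Alternatives were library size scaling, DESeq2, no filter (at least 1 count), a filter of 5 CPM in 4 libraries, no robust option, only the 2 groups compared, the repeat number as a block, each library left out, the 2 libraries with the fewest detected genes left out, and repeats 1 and 2 or 3 and 4 only. Exon lengths and positions are from GENCODE v29 on GRCh38, promoters from RefSeq on GRCh38.p14. Protein sequences were not used here.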

Additional observations from a re-analysis of the deposited data

Results flagged for a closer look

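In 93 groups of 4 libraries, 2 had a library far from the other 3 by Dixon's gap ratio at the 95% level, where chance alone would give about 5%. CRELD2 was at 18.6 CPM in repeat 1 at pH 7.4, above the other 3 at 10.4 to 10.7. DNAJB11 was at 41.2 CPM in repeat 3 at pH 6.9, below the other 3 at 44.4 to 44.6.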

How the results depend on the processing

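No change of a member that was called under any setting reversed its sign. In pH 6.4 against pH 7.4, 11 members were higher and 1 lower, and all genes called numbered 5321. With only the 2 groups compared these were 7 and 0 members, and within repeats 3 and 4 there were 3 and 0 members and 1528 genes. Library size scaling and DESeq2 gave 2 members lower, CANX and CRELD2. Leaving out 1 library gave 4 to 16 members higher, 0 to 1 lower and 3795 to 6411 genes called. In pH 6.9 against pH 7.4, 127 genes and 0 members were called. DESeq2 gave 559 genes and 1 member higher, no filter 201 genes, only the 2 groups compared 250 genes and 1 member, leaving out the 2 libraries with the fewest detected genes 20 genes, repeats 1 and 2 only 7 genes and repeats 3 and 4 only 0 genes, while leaving out 1 library gave 39 to 306 genes and 0 to 1 member. In pH 6.4 against pH 6.9, 8 members were higher and 2988 genes were called. Only the 2 groups compared gave 4 members, leaving out the 2 libraries with the fewest detected genes 3, repeats 3 and 4 only 0 members and 0 genes, repeats 1 and 2 only 1906 genes, and leaving out 1 library 1 to 16 members and 1171 to 4944 genes. With the repeat number as a block, 7290 genes were called in pH 6.4 against pH 7.4, with 12 members higher and 1 lower. In pH 6.9 against pH 7.4 the block gave 947 genes and 2 members, and in pH 6.4 against pH 6.9 5456 genes and 12 members. Beside the calls of XBP1, ERO1A, PDIA4, HSP90B1, MANF and SELENOS given above the block changed no other call of a member. Library size scaling moved the higher genes' share of all calls from 51.4% to 40.4% against pH 7.4 and from 51.9% to 38.2% against pH 6.9, and the block moved it from 43.3% to 54.8% in pH 6.9 against pH 7.4. Fits within 2 repeats leave fewer degrees of freedom and fewer samples; the cause of the other changes was not tested. Counts of 19 to 163 at pH 7.4 limit DERL3.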
